A study of Saccharomyces cerevisiae with 2 samples.

Results

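The stretch of budding yeast chromosome 12 that lies right of the ribosomal DNA was followed in nucleosome maps from phosphate-starved cells and from cells given phosphate. It was defined by position alone, as chromosome 12 right of position 500000, up to the last tagged position, 1071651 (build of the files, sacCer1). It spans 571651 bp and holds 572 bins of 1 kb, the last of them partial, out of 12041 nuclear bins. The yeast strain carried PHO4-MYC::TRP1 and CBF1-3HA::LEU2, tagged forms of 2 transcription factors, in both groups. Log-phase cells spent 3 h without phosphate and were then moved for 80 min to medium with 0 mM phosphate (starvation, 1 library) or with 10 mM phosphate (high phosphate, 1 library). Micrococcal nuclease, which cuts the linker DNA between nucleosomes, released mononucleosomes, and the gel-purified DNA was sequenced without an antibody. Because each condition had 1 library, no test between conditions was made. Effects of the condition and of the individual library cannot be told apart in this design.

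The ribosomal DNA is a long tandem array of the genes for ribosomal RNA, which forms the nucleolus. Chromosomal DNA on its far side is joined to its centromere only through that array, and it is among the last DNA to be separated when yeast cells divide. Nucleosomes wrap DNA around an octamer of histones, and in yeast they form regular arrays that start from nucleosome-poor promoters. In the gene order of the RefSeq R64 assembly, 311 of 573 genes of this chromosome follow the last ribosomal RNA gene, of which 291 code for proteins, 15 for tRNAs and 5 for small nucleolar RNAs. They include SWI6, a cell cycle transcription cofactor, CDC42, a polarity GTPase, HSP60, the mitochondrial chaperonin, ACO1, the aconitase of the citric acid cycle, EST2, the catalytic subunit of telomerase, FKS1, a glucan synthase, ILV5, an enzyme of branched-chain amino acid synthesis, FBP1, a gluconeogenic phosphatase, and SIR3, a silencing factor. The last of them are YRF1-4 and YRF1-5, helicase genes of the repeated Y′ elements at chromosome ends. The number of symbols among the 311 that begin with PHO or VTC, the prefixes of many phosphate-response genes, was 0. Phosphate-response genes with other names were not sought. R64 is not the build of the files, so no measured value was assigned to a gene.

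The stretch held 46907 tags in starvation and 123101 in high phosphate, which is 82.1 and 215.3 tags per kb. These were 4.68% and 4.74% of the nuclear tags of their libraries, so starvation was lower by a log2 ratio of −0.016 (95% exact interval −0.032 to −0.00097). The sign rests on the scaling, since the log2 ratio was 0.060 when the median 10 kb bin was set equal in both libraries. The intervals cover counting error only. Tags filled 4.10% of position-strand combinations here in starvation and 10.8% in high phosphate, and repeat tags at a position had been collapsed before deposit. With a correction for filled positions the log2 ratio was −0.020. It was −0.038 without the first 20 kb and −0.0097 without the last 20 kb.

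Chromosome 12 left of the ribosomal DNA had a similar log2 ratio and a higher density, and the other chromosomes lay on both sides of the stretch in each. Positions 1 to 440000 held 87.7 tags per kb in starvation and 226.8 in high phosphate, with a log2 ratio of 0.0044 (−0.013 to 0.021). The difference right minus left was −0.021, which does not depend on the scaling. Over the other 15 nuclear chromosomes the log2 ratio averaged 0.034 ± 0.089 (SD, n = 15 chromosomes), and 7 of them lay below the stretch right of the ribosomal DNA. On the 10 other chromosomes of at least this length, the same length taken from the right end gave log2 ratios of −0.081 on chromosome 4 to 0.090 on chromosome 5. In starvation 4 of 15 chromosomes had a lower density per kb than this stretch, and in high phosphate 6 did. Long runs without any tag, described with their positions in a later paragraph, made up 5.03% of the stretch. Outside those runs its density was 86.4 tags per kb in starvation and 226.7 in high phosphate, against 86.8 and 225.2 outside such runs on the other chromosomes. Left of the ribosomal DNA the densities outside such runs were higher, at 91.4 and 236.4.

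**Figure D1:**
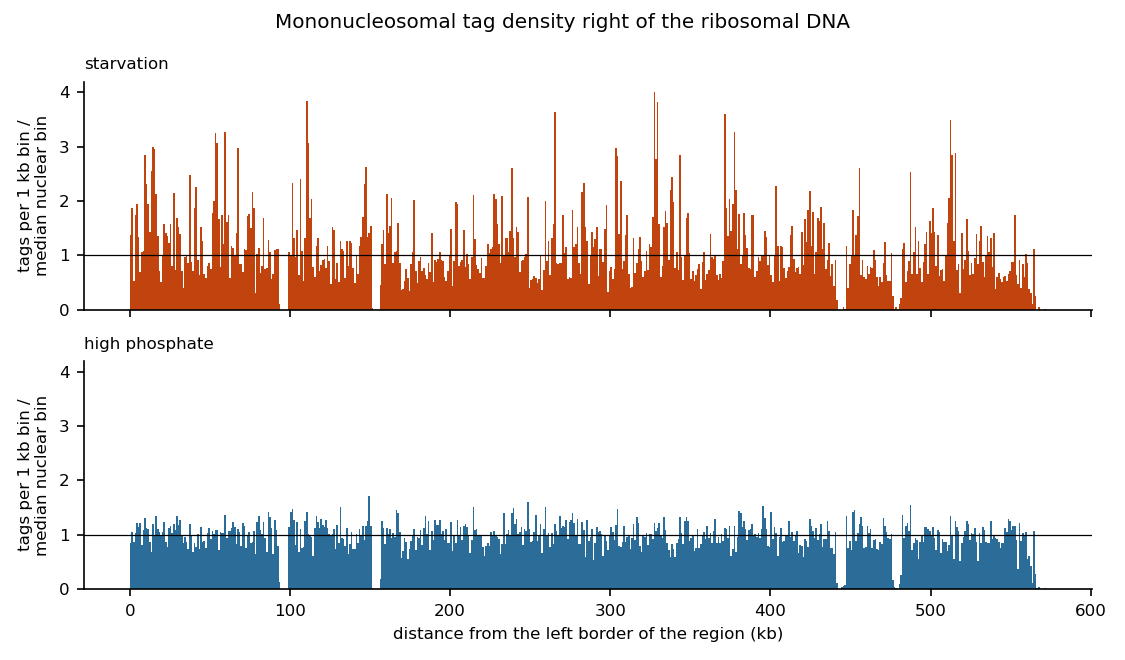
Tags in each 1 kb bin divided by the median nuclear bin of the same library, against distance from the left border of the stretch, in starvation (top) and high phosphate (bottom), 1 library each. Starvation bins reached 4.01 times the median and high phosphate bins 1.71 times, and 14 bins held 0 tags in both libraries.

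Bin by bin, starvation was the more uneven map. The coefficient of variation over the 572 bins was 0.606 in starvation and 0.314 in high phosphate, and on the other chromosomes together it was 0.597 and 0.313. Bins above 1.5 times the median nuclear bin numbered 124 in starvation (21.7%) and 7 in high phosphate (1.22%), against 22.5% and 1.33% on the other chromosomes. Bins below 0.5 of the median numbered 58 in starvation (10.1%) and 34 in high phosphate (5.94%), against 10.6% and 6.40% on the other chromosomes. Across the 548 bins whose summed count reached 20 tags, the log2 counts of the libraries had a Pearson correlation of 0.52, given as a description. These bins share their base composition and the number of positions that can be placed uniquely. The correlation was 0.44 left of the ribosomal DNA and averaged 0.52 ± 0.078 over the 15 other chromosomes (SD).

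Of those 548 bins, 49 (8.94%) were at least 2-fold lower in starvation, where 8.82% of all nuclear bins were. At least 2-fold higher were 34 (6.20%), where 6.46% of all nuclear bins were. Left of the ribosomal DNA the shares were 7.76% lower and 7.06% higher. When the median 10 kb bin was set equal, the stretch had 34 lower and 40 higher bins, so the balance of directions depends on the scaling. No nuclear share under that scaling was set beside these counts. The log2 ratio was below 0 in 333 bins (60.8%), beside 60.5% of all nuclear bins. Scaled to nuclear tags, the counts of changed bins were therefore close to the nuclear background in both directions.

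The 5 bins with the largest falls, ranked by the interval bound nearest to 0, lay in 4 separate places. The first was chromosome 12 from 749001 to 750000, where starvation had 29 tags, high phosphate had 250, and the log2 ratio was −1.73 (−2.34 to −1.17). In its 5 successive pieces of 200 bp, starvation had 9, 4, 8, 2 and 6 tags, and high phosphate had 57, 59, 63, 37 and 34. The low count thus ran through the whole bin. The second lay 4 kb away, from 753001 to 754000, with 43 and 309 tags in starvation and high phosphate (log2 ratio −1.47), and it opened a run of 3 bins that were each at least 2-fold lower. The run to 756000 held 120 tags in starvation and 728 in high phosphate (log2 ratio −1.23, −1.52 to −0.94). The others were 1040001 to 1041000 with 28 and 212 tags, 900001 to 901000 with 47 and 319, and 984001 to 985000 with 37 and 260. In starvation all 5 stood at 0.38 to 0.64 of the median nuclear bin, while in high phosphate they stood at 0.94 to 1.42 of it.

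The 5 bins with the largest rises stood in 3 places, and 3 of the bins lay within 11 kb of each other. The first was chromosome 12 from 513001 to 514000, where starvation had 189 tags against 155 in high phosphate, so that the log2 ratio was 1.66 (1.35 to 1.98). Its pieces of 200 bp held 14, 53, 55, 64 and 3 tags in starvation and 10, 24, 37, 49 and 35 in high phosphate. After scaling, starvation was higher in the first 4 of them and lower in the last. Next were 837001 to 838000 with 163 tags in starvation and 135 in high phosphate (log2 ratio 1.65), 829001 to 830000 with 283 and 252 (1.54), 827001 to 828000 with 297 and 274 (1.49), and 871001 to 872000 with 267 and 255 (1.44). Within 837001 to 838000, the piece from 837601 to 837800 held 78 starvation tags and 38 high phosphate tags, and the piece after it 7 and 8, so neither library filled that bin evenly. In starvation the 5 bins stood at 2.20 to 4.01 times the median nuclear bin, in high phosphate at 0.60 to 1.22 times. Of the 9 bins that adjoin these rises, 8 were also higher in starvation, while 60.5% of all nuclear bins were below 0. Log2 ratios of bins 1 kb apart also correlated on the other chromosomes (0.37 on average). Bins beside large rises were not counted there, so the 8 of 9 does not set this stretch apart. Of the 10 bins that adjoin the falls, 6 were also lower, a share near that of all nuclear bins.

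The 3 densest bins over both libraries were 827001 to 828000 and 829001 to 830000, named above, and 610001 to 611000 with 284 tags in starvation and 318 in high phosphate. At the other end, 14 bins held 0 tags in both libraries. They share the lowest rank, and all of them fall in the tag-free parts described below.

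Neighbouring changes of the same sign formed 8 runs of lower and 7 runs of higher bins of at least 2 kb. Per 1000 bins these were 14.0 and 12.2 runs, against 10.5 and 12.1 on the other chromosomes. Left of the ribosomal DNA the rates were 2.27 and 11.4. The runs held 38.8% of the lower bins and 58.8% of the higher bins of the stretch, against 27.0% and 49.7% on the other chromosomes and 6.06% and 33.3% left of the ribosomal DNA. No test of these shares was made. The longest lower run went from 1046001 to 1050000, with 185 tags in starvation and 1059 in high phosphate (log2 ratio −1.14, −1.37 to −0.91). The longest higher run went from 875001 to 879000, with 656 and 722 tags (log2 ratio 1.24, 1.08 to 1.39). Higher runs of 3 bins lay at 513001 to 516000, 827001 to 830000, 837001 to 840000 and 1011001 to 1014000, with log2 ratios of 1.34, 1.41, 1.39 and 1.18.

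In windows of 20 kb, stretches higher and lower in starvation alternated along the chromosome. Of 28 full windows, 15 (53.6%) were below 0, where 55.7% of all nuclear windows were. The highest window was 820001 to 840000, where starvation had 2462 tags against 4376 in high phosphate. Its log2 ratio was 0.55 (0.47 to 0.62), and it holds 6 bins at least 2-fold higher. Next were the window at the left border, which ends at 520000, with 2469 and 4740 tags (0.43, 0.36 to 0.51), and 540001 to 560000 with 2283 and 4414 tags (0.42, 0.35 to 0.50). The lowest was 1040001 to 1060000, where starvation had 1054 tags against 4449 in high phosphate and the log2 ratio was −0.70 (−0.80 to −0.60). There 18 of 20 bins were below 0, and 6 were at least 2-fold lower. The windows 680001 to 700000 (1216 and 4718 tags, −0.58) and 960001 to 980000 (913 and 3530 tags, −0.58) followed. Starvation had 123.1 tags per kb in the highest and 52.7 in the lowest of these windows, while high phosphate had 218.8 and 222.5.

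**Figure D2:**
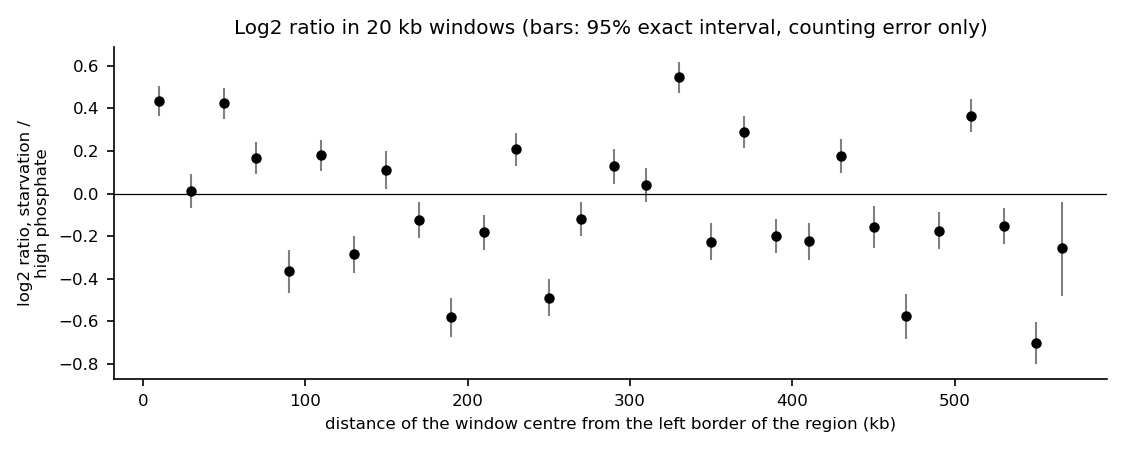
Log2 ratio of starvation over high phosphate in 20 kb windows (the last is partial), against the distance of the window centre from the left border, scaled to nuclear tags. Bars are 95% exact intervals for counting error alone. Values run between −0.70 and 0.55, and sign changes occur throughout.

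Over 100 kb blocks the sign changed 3 times. In the first block, up to 600000, starvation was higher, with 9546 tags against 21759 in high phosphate and a log2 ratio of 0.19 (0.15 to 0.22). The next 2 blocks were lower, at −0.12 and −0.083. From 800001 to 900000 starvation was higher again, at 0.11 (0.078 to 0.15), and 13 of its bins were at least 2-fold higher. The block from 900001 to 1000000 had a log2 ratio of −0.16 (−0.20 to −0.12), and the remaining 71651 bp had −0.12. With the median 10 kb bin set equal, every ratio rises by 0.076, which turns the sign of none of these values. The −0.083 value then lies near 0. The upper interval bounds of that block (−0.047) and of the last one (−0.069) are smaller in size than the shift. The direction of those blocks is therefore not settled under that scaling. In 102 full blocks of the other chromosomes the log2 ratio had an SD of 0.13, with 5th and 95th percentiles of −0.22 and 0.18, so only the first block lay past either of them.

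Set beside other chromosomes, the spread of the log2 ratio was low over 1 kb bins and in the upper part of their range over 10 and 20 kb bins. With the counting variance taken off, the SD over 1 kb bins was 0.63 right of the ribosomal DNA and 0.67 left of it, and 1 of the 15 other chromosomes had a smaller value. Over 10 kb bins it was 0.38 (n = 57 bins) right and 0.31 left, and 12 of 15 chromosomes had a smaller value. Over 20 kb bins it was 0.32 (n = 28) right and 0.22 left, and 13 of 15 were smaller. At 50 kb the value was 0.18 (n = 11) right and 0.089 left, with 11 of 15 smaller. The other chromosomes averaged 0.34 ± 0.051 at 10 kb and 0.25 ± 0.065 at 20 kb (SD). No steady trend with bin size was seen, since 4 of 15 were smaller at 200 bp (0.86 right) and 9 of 15 at 5 kb (0.44 right). All of the values right of the ribosomal DNA lay within the range of the 15 chromosomes. The correlation of log2 ratios between bins 1 kb apart was 0.44, against 0.32 left of the ribosomal DNA and 0.37 ± 0.084 over the other chromosomes (SD, n = 15). At 10 kb apart it was 0.10, against −0.081 and −0.0039 ± 0.073. These bins come from the same pair of libraries, and no test was made.

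**Figure D3:**
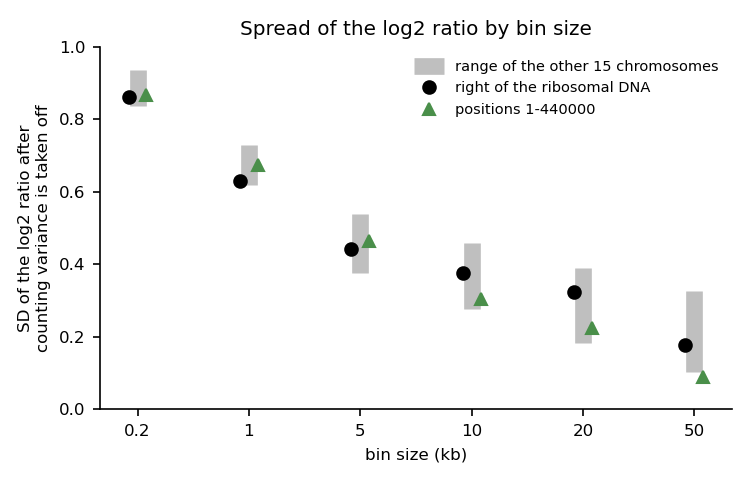
SD of the log2 ratio over bins of 0.2 to 50 kb after the counting variance is taken off, right of the ribosomal DNA (circles), at positions 1 to 440000 (triangles) and over the range of the other 15 chromosomes (grey bars). The circle lies near the lower edge of the grey bar at 1 kb and in its upper part at 10 and 20 kb.

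Measured from the right end, the stretch was low in starvation at 5 to 50 kb and high at 400 to 571 kb. Tagged bins between the ribosomal DNA and the stretch are not part of it and are described below. At 20 to 50 kb from the last tagged position, 1978 tags in starvation and 6736 in high phosphate gave a log2 ratio of −0.39 (−0.47 to −0.32). The other 15 chromosomes averaged −0.017 ± 0.20 (SD) at that distance from their right ends, and the lowest of them had −0.38. At 5 to 20 kb the log2 ratio was −0.38 (−0.50 to −0.26), and 2 of 15 chromosomes were lower there. The outermost 5 kb held 3 tags in starvation and 9 in high phosphate, too few to give a direction (log2 ratio −0.21, −2.73 to 1.79). At 50 to 100 kb the log2 ratio was 0.047, with 7 of 15 chromosomes lower, and at 200 to 300 kb 0.059, with 10 of 13 lower. At 100 to 200 kb it was −0.036 (−0.074 to 0.00066), with 1 of 15 lower. At 300 to 400 kb it was −0.20, with 2 of 12 chromosomes lower. At 400 to 571 kb, the part of the stretch nearest the ribosomal DNA, it was 0.11 (0.085 to 0.14). That was above the 10 other chromosomes that reach so far, which averaged −0.048 ± 0.074 (SD) with a highest value of 0.049. That excess came from the first 80 kb. Up to 580000, a limit chosen after the values were seen, there were 8521 tags in starvation and 18332 in high phosphate (log2 ratio 0.27, 0.23 to 0.31), and from 580001 to 671651 there were 7068 and 19056 (−0.055, −0.095 to −0.016).

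**Figure D4:**
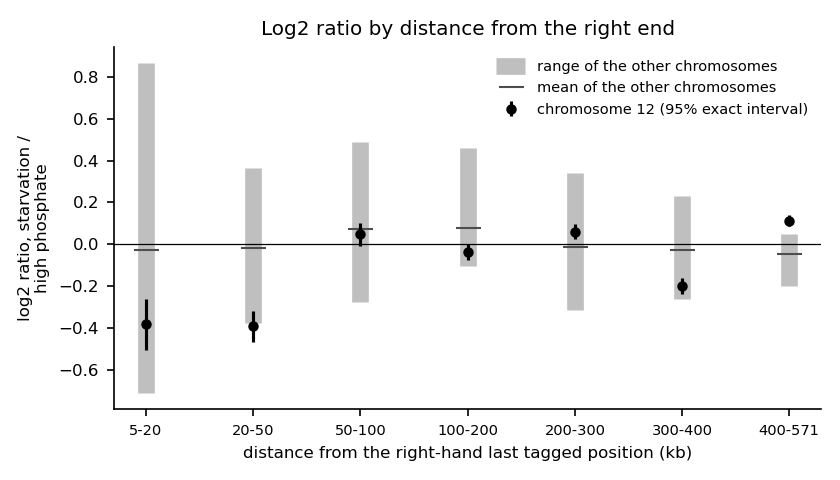
Log2 ratio of starvation over high phosphate by distance from the right-hand last tagged position, for chromosome 12 (points with 95% exact intervals) and the other chromosomes that reach each distance (grey bars, range, with the mean as a dash). At 20 to 50 kb the point lies just below the grey range, which its interval overlaps, and at 400 to 571 kb it lies above the range.

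The left border was set by position alone, and the ratio changed there between neighbouring bins, as it did at many other places. The bins just inside, which end at 501000 and 502000, had 101 and 139 tags in starvation and 191 and 236 in high phosphate (log2 ratios 0.46 and 0.61). The bins just outside, 498001 to 499000 and 499001 to 500000, had 44 and 68 tags in starvation and 216 and 247 in high phosphate (log2 ratios −0.92 and −0.49). The next bin inside, 502001 to 503000, had 39 starvation tags and 197 high phosphate tags (log2 ratio −0.96). All 5 bins from 495001 to 500000 were below 0, at −0.92 to −0.49. Bins still nearer the ribosomal DNA had mixed signs. Those that start at 489001, 491001 and 493001 had −0.80, −1.23 and −0.79, and those at 490001, 492001 and 494001 had 0.26, 0.41 and 0.16. In the first window inside, 14 of the 20 bins were above 0.

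Sequenced fragments were longer in starvation, to the same extent as elsewhere. Right of the ribosomal DNA the plus and minus strands were offset by 155 bp in starvation, against 142 bp in high phosphate. This offset measures fragment length. Left of it the offsets were 156 and 145 bp, and the other 15 chromosomes averaged 154.9 ± 0.915 and 141.9 ± 1.60 bp (SD). In high phosphate the peak was broad, and a 5 bp running mean in place of 11 bp moved it to 146 bp. Plus-minus pairs at that distance were 2.74 times as frequent as distant pairs in starvation and 1.37 times in high phosphate. Of the other chromosomes, 5 had a lower peak in starvation and 5 in high phosphate.

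Nucleosomes formed regular arrays in both libraries. The nucleosome repeat, the distance between neighbouring nucleosomes, came to 166.3 bp in starvation against 164.5 bp in high phosphate. Left of the ribosomal DNA it was 161.4 and 163.6 bp. Over the other 15 chromosomes it averaged 163.3 ± 2.77 bp in starvation, against 163.2 ± 2.19 bp in high phosphate (SD), with 13 of 15 below the stretch in each library. The difference starvation minus high phosphate was 1.8 bp right and −2.2 bp left of the ribosomal DNA, while over the other chromosomes it had an SD of 2.24 bp. With 4 array peaks in place of 5, the high phosphate repeat was 168.0 bp and the sign of that difference turned. The stretch thus lay less than 2 of these SDs above the mean of the other chromosomes in each library.

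Relative to distant pairs, peak 1 of the array reached 1.56 in starvation and 1.23 in high phosphate, with 8 and 6 of the other 15 chromosomes below it. In starvation peaks 3, 4 and 5 stood at 1.32, 1.24 and 1.20, and 14 of 15 chromosomes were lower at each of these peaks. Left of the ribosomal DNA they stood at 1.22, 1.24 and 1.19, so peaks 4 and 5 were about as high there, and peak 3 was lower. The averages over the other chromosomes were 1.25 ± 0.048, 1.19 ± 0.038 and 1.14 ± 0.041 (SD). The troughs before peaks 3 and 4 were also higher, at 0.992 and 1.05, than on 14 of 15 chromosomes, against 1.02 and 1.05 left of the ribosomal DNA. The trough before peak 5, at 1.03, was higher than on 7 of 15. The rise of peak 3 above its trough was 0.32, with 13 of 15 chromosomes lower, and that of peak 4 was 0.19, with 10 lower. In high phosphate peaks 3 to 5 stood at 1.11, 1.07 and 1.05, with 12, 12 and 6 of 15 chromosomes lower.

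**Figure D5:**
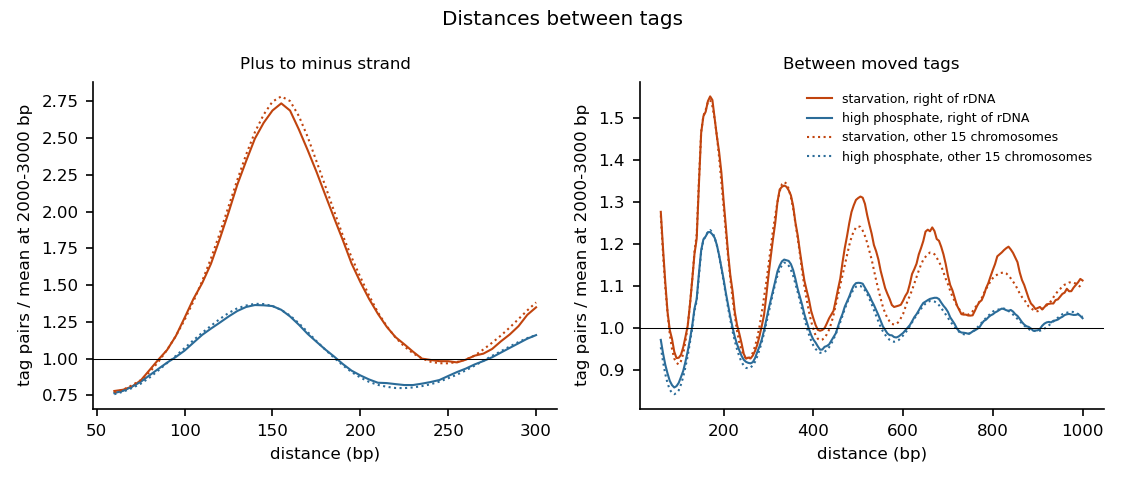
Number of tag pairs by distance, divided by the mean at 2000 to 3000 bp, for plus to minus strand pairs (left) and for tags moved 73 bp toward the fragment middle (right). Solid lines are the stretch right of the ribosomal DNA (rDNA), dotted lines the other 15 chromosomes. Starvation peaks (red) are higher than high phosphate peaks (blue), and at peaks 3, 4 and 5 of the array the solid starvation line reaches higher than the dotted one.

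Within the stretch, 100 kb blocks had repeats of 156.2 to 170.8 bp in starvation, against 154.4 to 171.9 bp in high phosphate. The block from 700001 to 800000 had the longest repeat in both, 170.8 and 171.9 bp, and the block from 900001 to 1000000 the shortest in both, 156.2 and 154.4 bp. Of 102 blocks elsewhere, 1 had a repeat at least as long in both libraries and 0 had one as short in both. These limits were the extremes of the 6 blocks themselves, so the counts do not measure how rare such blocks are. In starvation both extremes lay within the 5th to 95th percentiles of the 102 blocks (155.4 to 176.7 bp). In high phosphate both lay outside them (157.4 to 167.2 bp). Repeats of the libraries had a correlation of 0.16 over the 102 blocks and 0.81 over these 6. A single block is measured loosely, since the repeats of the libraries differed with an SD of 7.14 bp over those 102 blocks. Offsets by block ran from 151 to 158 bp in starvation, against 135 to 149 bp in high phosphate, and starvation was longer in each of the 6 blocks, by 3 to 23 bp.

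Nucleosome midpoints, or dyads, were placed from 2 disjoint subsets of 500000 nuclear tags per library. Right of the ribosomal DNA the subsets gave 1977 and 2027 dyads in starvation and 2449 and 2424 in high phosphate, or 3.50 and 4.26 per kb. On the other chromosomes the values were 3.49 and 4.28 per kb. Of the starvation dyads, 52.2% lay within 20 bp of a high phosphate dyad (range 51.0% to 53.4% over 4 pairs of subsets), against 53.8% on the other chromosomes. Of the high phosphate dyads, 42.9% (41.4% to 44.4%) had a starvation dyad within 20 bp, against 43.7% elsewhere. Between subsets of the same library the shares were 56.7% in starvation and 48.4% in high phosphate. Dyads of the first starvation subset that were matched in the other 3 subsets numbered 503, or 25.4%, against 25.9% on the other chromosomes. The ranges over pairs of subsets cover the values of the other chromosomes, except that 53.8% lies above the range of the starvation dyads.

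Stretches of more than 400 bp without tags were sought in both libraries together, so they are shared by definition. There were 15 of them, which together made 28728 bp, or 5.03% of the length. The share was 4.09% at positions 1 to 440000 and 4.03% on the other chromosomes. The files hold only uniquely placed tags, and what sequence these stretches hold was not tested. The longest stretch ran from 593144 to 599092 (5949 bp). The 2 kb on its left held 160 starvation tags and 402 high phosphate tags, and the 2 kb on its right 177 and 600. A second gap from 651164 to 656725 was interrupted by a single tagged position. The third group lay between 941182 and 947128, the fourth between 976262 and 981678, and the last, from 1067228 to 1071631, reached almost to the final tagged position. In the outermost 11651 bp, from 1060001, density fell to 19.3 tags per kb in starvation, against 59.9 in high phosphate. The log2 ratio was −0.26 (−0.48 to −0.039).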

How the data were processed

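Per the labels' protocols, mononucleosomal DNA was sequenced on an Illumina Genome Analyzer and placed on the yeast genome release sacCer1. A short label also names sonication, a step absent from the protocols. Not given in the sources used here are the read length, the aligner and its settings. The authors deposited, for each library, a chromosome, position and strand per uniquely placed tag, with no level attached and 0 repeated rows, so repeat tags had been collapsed. The libraries held 1012969 tags in starvation and 2603132 in high phosphate, of which 1001229 and 2598022 were nuclear, or 83.2 and 215.9 per kb.

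The titles of the samples gave the groups. Each tag was moved 73 bp to the fragment middle and tags were counted in 1 kb bins from position 1, scaled to nuclear tags. Log2 ratios of bins, their SDs and the 2-fold calls used a pseudocount of 0.5 and at least 20 tags. Printed ratios of regions and named bins used none and carry 95% exact conditional binomial (Clopper-Pearson) intervals. These cover counting error only. Counting variance of bins came from the counts (delta method). Fragment offset was the lag of 80 to 250 bp with most plus-minus pairs after an 11 bp running mean. The repeat was the slope over 5 peaks, the first sought at 120 to 220 bp. Dyads were maxima of the moved-tag density after Gaussian smoothing (SD 20 bp). They had to exceed the nuclear mean and were kept 120 bp or more apart. The bins named are the 5 largest falls and rises by the interval bound nearest to 0, the 3 densest and sparsest bins and the 3 highest and lowest windows. The stretch, its measures and these rules were chosen with earlier results of these data known. The comparisons by distance from the right end, of equal lengths, of bin sizes, of runs, of 100 kb blocks and of later array peaks were added after the bins had been seen. The fragment offset and the repeat were tested on simulated data. Calls of 2-fold changes in 1 kb bins were tried there on ratios centred on their median, without the minimum of 20 tags. The calls as scaled to nuclear tags were therefore not tested. The correction for filled positions was run on the simulated data with no limit set for it to meet. The other measures were not run on simulated data. Python 3.11.15, numpy 2.4.6, scipy 1.17.1 and pandas 2.3.3 were used. The RefSeq R64 gene table served only for names and gene order. Sequences by position were not used here.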

Additional observations from a re-analysis of the deposited data

How the results depend on the processing

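No paired analysis was possible because there was 1 library per condition, which also left no replicate to drop. The log2 ratio of the whole stretch was −0.016 and turned to 0.060 when the median 10 kb bin was set equal, and it was −0.038 when the first 20 kb were left out and −0.0097 without the last 20 kb. The cause was not tested. Density was 80.5 tags per kb in starvation and 212.4 in high phosphate with 20 kb more on the left, 80.6 in starvation with 20 kb less there, and 83.7 and 218.6 without the last 20 kb. With the correction for filled positions it was 96.4 and 267.6. With 200 bp bins, 642 were at least 2-fold lower and 340 higher, and with 5 kb bins 2 and 4, against 49 and 34 with 1 kb bins. Bins of these sizes differ in number and in counting error, and no nuclear share was set beside the counts at 200 bp and 5 kb. Those counts therefore do not compare the stretch with other chromosomes. The bin SD of the log2 ratio was 1.01 with 200 bp bins, 0.45 with 5 kb bins and 0.72 with the correction, against 0.66. The high phosphate offset was 146 bp with a 5 bp running mean and 139 bp in the thinned library, and the high phosphate repeat was 168.0 bp with 4 peaks. With dyads matched at up to 40 bp, the share within starvation was 70.6% and the share of starvation dyads matched across libraries 69.5%. For high phosphate these were 68.2% and 57.1%. A smoothing SD of 30 bp gave 59.5% within the starvation library and 40.4% for high phosphate dyads across libraries. In windows of 50 kb, 7 of 11 were lower in starvation, against 15 of 28 windows of 20 kb. The other 36 of 62 values stayed within their spread, counting interval or 1.5 times the count. The 10 named bins kept their direction and stayed within their intervals under 4 alternatives, which for such large ratios is a weak check. Depth limits single 1 kb bins to a counting SD of 0.21 in the log2 ratio.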
